A study of Drosophila melanogaster with 2 samples.

Results

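The regions described here are the middle-strength binding candidates of Gcm2 (glial cells missing 2) in Drosophila melanogaster embryos, those that rank just below the authors' final peak set. They were chosen by the pooled signal, the authors' enrichment value for each candidate region. The pooled dm6 list was sorted by it, and candidates ranked 2178 to 6800 that share no base with a final peak were kept. Of the 4623 candidates in that range 296 shared a base with a final peak and 4327 remained, 14.4% of the 30000 pooled candidates. They are called members below, and were set beside the 2177 final peaks and the 22808 weaker candidates, those ranked after 6800 that share no base with a final peak.

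The data are from chromatin immunoprecipitation followed by sequencing (ChIP-seq) with, per the labels' description, an anti-GFP antibody on whole embryos of both sexes, aged 0 to 24 h, of a fly line that stably expresses Gcm2 with GFP at its C terminus. Another label field gives the antibody as gcm2, so a share of native Gcm2 in the signal was not tested. There is 1 group of 2 libraries, which the labels call biological replicates 2 and 3, and both carry the tagged protein. Chromatin was sheared to 200 to 800 bp, mock or untagged embryos were not analysed here, and reads of the tagged insertion and of the native gcm2 gene cannot be told apart in the lists. The final peaks are those that the authors kept by the irreproducible discovery rate (IDR), and are called IDR peaks below. Whole embryos hold all cell types, so a binding region was assigned to none, and a low signal from few cells cannot be told apart from weak binding in many.

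Gcm and its neighbour and paralog Gcm2 are zinc-containing transcription factors that bind an octamer through the GCM domain. In the fly nervous system they turn neural precursors towards glia through targets such as repo, pnt, loco and ttk, and both also act in the blood cells called hemocytes. The IDR measures how alike the ranks of regions are in replicates. In these lists the IDR peaks were the 2177 strongest pooled candidates, so members differ from them by a cut in pooled signal. DREF and M1BP, named below, are factors that bind near the start sites of many broadly expressed fly genes.

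The sequences below were read from the RefSeq Release 6 genome, whose chromosomes match the dm6 lists. The first is the member at the promoter of gcm2 itself, shown as 201 bases centred on its summit (the position of strongest signal) because it holds a GCM octamer. The 2 after it are the same windows of the members at the promoters of pnt and ttk, which hold none. Capitals mark matches to the octamer, searched on both strands as ATACGGGC, ATACGGGT, ATGCGGGC and ATGCGGGT, and each line is the plus strand at chr3R:23314620-23314820, chr3R:31713603-31713803 and, for gcm2, chr2L:9608236-9608436.
gcm2: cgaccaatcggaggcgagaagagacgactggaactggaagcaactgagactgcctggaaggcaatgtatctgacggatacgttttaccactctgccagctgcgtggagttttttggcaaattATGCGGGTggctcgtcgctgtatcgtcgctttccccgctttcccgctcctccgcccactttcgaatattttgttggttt
pnt: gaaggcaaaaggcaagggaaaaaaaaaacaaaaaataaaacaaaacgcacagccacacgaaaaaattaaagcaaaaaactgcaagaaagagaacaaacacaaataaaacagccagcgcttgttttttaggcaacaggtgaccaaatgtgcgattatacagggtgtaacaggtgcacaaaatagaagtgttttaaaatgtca
ttk: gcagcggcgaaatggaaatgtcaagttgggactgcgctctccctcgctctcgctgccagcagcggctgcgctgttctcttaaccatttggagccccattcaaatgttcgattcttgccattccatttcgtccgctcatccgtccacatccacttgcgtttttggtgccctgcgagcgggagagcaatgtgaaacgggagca

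The next set is the octamer with its flanks at 7 of the 10 strongest members with a match, written on the strand that carries it, to show how the flanks vary. They are named by the protein-coding gene with the nearest transcription start site (TSS) and lie at chr3R:4992522-4992551, chrX:7710866-7710895, chr3R:5281340-5281369, chr3L:3059367-3059396, chr2L:7387366-7387395, chr3L:2391074-2391103 and chr3L:18784746-18784775.
CG14662: attaccgcctgATGCGGGCtgtttgttccc
CHES-1-like: aagtgctacccATGCGGGCaatttaacatg
mtd: tgcaagagcatATACGGGCgaggagttctt
CG16753: caaataaatatATACGGGTttcaccgatat
CG5149: taatttttccgATGCGGGTtcaaggcccca
CG32299: ctcgttcgttcATGCGGGCttacatttgtt
ftz-f1: ttctatttttcATACGGGCggccacccctt
Of these, CG5149 had its octamer on the minus strand. The 4 octamers were shared unequally among members: 32 had ATGCGGGC, 15 ATGCGGGT, 9 ATACGGGC and 6 ATACGGGT. Among all pooled candidates ATGCGGGT was at 143 of the 462 with a match, against 15 of the 62 members with one.

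The last set shows matches of promoter factors, in capitals. The DRE octamer TATCGATA, bound by DREF, is shown at EloB (chr3R:20579865-20579894), ms(3)K81 (chr3R:26875748-26875777), Vps15 (chr3R:9245875-9245904) and htk (chrX:18843579-18843608), and the M1BP site GGTCACACT at slmb (chr3R:21127502-21127530) and baz (chrX:17159900-17159928, minus strand).
EloB: cgatagtgagcTATCGATAgttcagggtca
ms(3)K81: tctctgtttgtTATCGATAagttggttagg
Vps15: ccaatcgatgtTATCGATAagtacactggc
htk: cagctgttgccTATCGATAggcaacaaccc
slmb: atatatgaacGGTCACACTgccacgggcc
baz: tttactgggcGGTCACACTactgctcgtt

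Member signal ran from 31.0 to 57.7 with a median of 38.9, against 57.8 to 1029 with a median of 82.4 at IDR peaks and 13.6 to 31.02 with a median of 18.4 at weaker candidates. Signals at both bounds of the range were continuous. The strongest member (X:21631539-21632002, signal 57.75) lay 120 bp from the TSS of lncRNA:flam, the flamenco piRNA cluster, and had rank 2660 in replicate 2 and 2312 in replicate 3. The weakest IDR peak, in an intron of drongo, had signal 57.76. The weakest member (3L:7432688-7433151, signal 31.02) lay in the 3′ UTR of Rac2 and ranked 9941 in replicate 2 and 9300 in replicate 3. The next candidate, intergenic and nearest CG13896, had 31.02. All members were 464 bp wide, had a deposited q-value of at most 0.0497 and merged into 4078 separate loci. Of them 813 (18.8%) shared the lowest q-value that the pooled list holds, 1.63e-04. Within 1 kb of an IDR summit lay 222 members (5.13%), and the median distance to one was 11569 bp. Candidates that share a base with an IDR peak had been left out by the rule, which takes away the nearest summits.

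The share of members found in both replicates depended on how near the summits had to be. A replicate was counted where its own list of 30000 candidates had a summit within 100 bp. The replicate ranks and signals given for a member are those of the nearest such summit, which need not be the strongest. Both replicates had a summit that close at 3245 members (75.0%, 95% Wilson interval 73.7 to 76.3), at 93.9% of IDR peaks and at 20.1% of weaker candidates. Among all pooled candidates the share was 33.9%. For members it was 49.99% with summits within 50 bp, 93.7% within 250 bp and 29.6% where both had to be among the 6800 strongest of their lists. Since the pooled signal is made from the same reads, these shares describe the choice of members and were not tested. Replicate 2 alone had a summit at 565 members (13.1%), replicate 3 alone at 479 (11.1%), and neither at 38 (0.878%). Most of those with a summit in 1 replicate still overlapped a region of the other: 485 of the 565 and 420 of the 479.

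Members found in both had a median rank of 5120 in replicate 2 (quartiles 3358 and 8063) and 5187 in replicate 3 (3377 and 8606). Their median signal was 20.1 in replicate 2 and 18.7 in replicate 3. In the top 2177 of the 30000 regions of a replicate's own list were 316 members (7.30%) in replicate 2 and 318 (7.35%) in replicate 3. This top holds as many regions as there are IDR peaks. Ranks within 2178 to 6800 in both lists were held by 1016 (23.5%). In the top 2177 of both lists were 3 members. Of these rdgBbeta encodes a lipid transfer protein and had ranks 2099 and 2088 in replicates 2 and 3. The others were ms(3)K81, which protects paternal telomeres (2018 and 2115), and Oda, ornithine decarboxylase antizyme (1821 and 2176). Members rank below 2177 in the pooled signal, which is made from the same reads, so these counts describe their choice and were not tested. Rank differed more than 5-fold between replicates at 359 members, 191 of them stronger in replicate 2 and 168 in replicate 3. Ranks correlated with a Spearman rho of -0.14 across the 3245 members and 0.62 across 2045 IDR peaks. The member value is set in part by the choice of a narrow range of the pooled signal, to which both replicates add.

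Some members were far stronger in 1 library, and the genes of this paragraph were picked after their values were seen. The promoter of tara, a cell cycle and chromatin regulator (3R:16242485-16242948), had signal 10.5 and rank 17840 in replicate 2, and 47.6 and rank 798 in replicate 3. That of ATPsynC, the ring subunit of ATP synthase, had signal 8.12 in replicate 2 and 37.8 in replicate 3. Those of eIF2beta, an initiation factor subunit, and sta, a ribosomal protein, were the other way round, with 43.3 and 40.9 in replicate 2 and 9.58 and 8.98 in replicate 3. PRL-1, a phosphatase gene, ranked 954 in replicate 2 and had no summit within 100 bp in replicate 3. The reverse held for Dad1, an oligosaccharyltransferase subunit gene, which ranked 739 in replicate 3. A missing summit is not a missing signal, as most members of this kind overlapped a region of the other replicate.

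**Figure D1:**
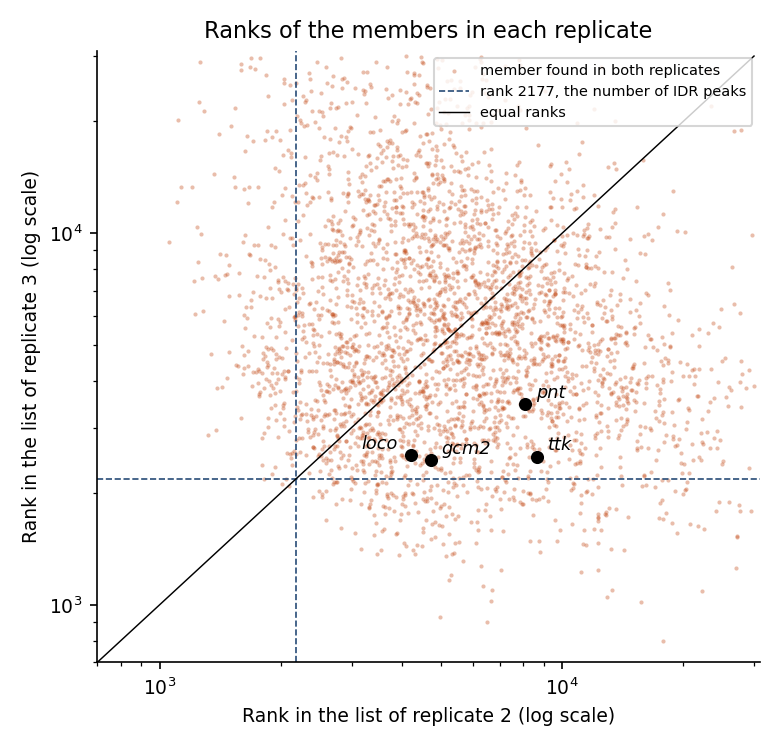
Ranks in the lists of replicate 2 (horizontal) and replicate 3 (vertical), both on log scales, for the 3245 members found in both. Black points are, for each Gcm pathway gene that has one, the strongest member within 1 kb of a TSS. The lower left corner, inside rank 2177 in both replicates, holds 3 members, and points spread on both sides of the line of equal ranks.

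Promoters held nearly 1 in 2 members. Each summit was given 1 class, in this order: promoter where it lay within 500 bp of an annotated TSS, then coding exon, UTR (5′ before 3′), exon of another kind, intron, and otherwise intergenic. Promoter summits numbered 2119 (49.0%, interval 47.5 to 50.5) among members, against 57.7% of IDR peaks and 26.7% of weaker candidates, with 32.9% among all pooled candidates. The odds ratio was 0.70 against IDR peaks (Fisher's exact test, two-sided, adjusted over 7 classes, p = 1.2e-10) and 2.63 against weaker candidates (adjusted p = 1.1e-174 by the same exact test). In each replicate's own list, regions of these ranks were at promoters in 46.5% of cases in replicate 2 and 47.1% in replicate 3 (mean 46.8% ± 0.398, SD, n = 2). Regions are not independent replicates, so these p-values measure counting error alone.

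Of the 7 classes, coding exons had the odds ratio farthest from 1 in both comparisons. They held 159 member summits (3.67%), against 5 IDR summits (0.230%) and 20.9% of weaker ones, and 16.4% of all pooled candidates. The odds ratio was 16.6 against IDR peaks (Fisher's exact test, adjusted p = 1.3e-21) and 0.145 against weaker candidates (Fisher's exact test, adjusted p = 1.9e-209). This share depended on the library: it was 3.64% in replicate 2's own list and 8.37% in replicate 3's (mean 6.00% ± 3.34, SD, n = 2), and the odds ratio against weaker regions was 0.182 without replicate 3 and 0.300 without replicate 2. Of 113 coding-exon members found in both replicates, 72 (63.7%, interval 54.5 to 72.0) ranked higher in replicate 3, against 1600 of all 3245 members (49.3%).

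The strongest coding-exon members, listed after their values were seen, lay in eEF2, elongation factor 2 (2L:21680998-21681461, signal 56.6), Calr, the chaperone calreticulin (3R:9628923-9629386, 51.9), Myd88, an adaptor of Toll signalling (2R:9307441-9307904, 50.6), ATPsynbeta, an ATP synthase subunit (4:1032776-1033239, 50.2), and vvl, a POU factor (3L:6792458-6792921, 49.4). Each ranked higher in replicate 3. The member in eEF2 had signal 17.5 in replicate 2 and 42.1 in replicate 3, and that in Calr had 12.6 and 32.0 in the same order. Coding-exon members had a mean GC content of 56.8% in the window of 100 bp on each side of the summit, and promoter members 42.5%.

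Introns held 1413 members (32.7%) and intergenic sequence 504 (11.6%). Against IDR peaks (30.04% and 9.88%) both shares passed the threshold of 0.05 by Fisher's exact test (odds ratios 1.13 and 1.20, adjusted p = 0.048 each), as was that of 3′ UTRs (1.27% against 0.689%, odds ratio 1.86, adjusted p = 0.048, same exact test). All 3 calls were lost in several other settings. Without a replicate, all sets were taken by rank from the other replicate's own list. Its strongest regions, as many as there are IDR peaks, then stood in for the IDR peaks. Without replicate 2 the odds ratios were 1.06 for introns and 1.004 for intergenic sequence, and neither passed. The 3′ UTR ratio was 4.13 without replicate 2 and 2.64 without replicate 3 and passed in both, but it was 1.66 with promoters of 1000 bp and did not pass. Against weaker candidates, intergenic (13.3%, odds ratio 0.856) and 3′ UTR shares (2.98%, odds ratio 0.419) were lower in members (Fisher's exact test, adjusted p = 0.0040 and 1.2e-11), and introns did not pass (34.2%, odds ratio 0.933 by Fisher's exact test, adjusted p = 0.073). The intron share was lower in members where either library was left out (0.916 without replicate 2 and 0.915 without replicate 3). The 5′ UTR and other-exon shares passed in neither comparison.

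**Figure D2:**
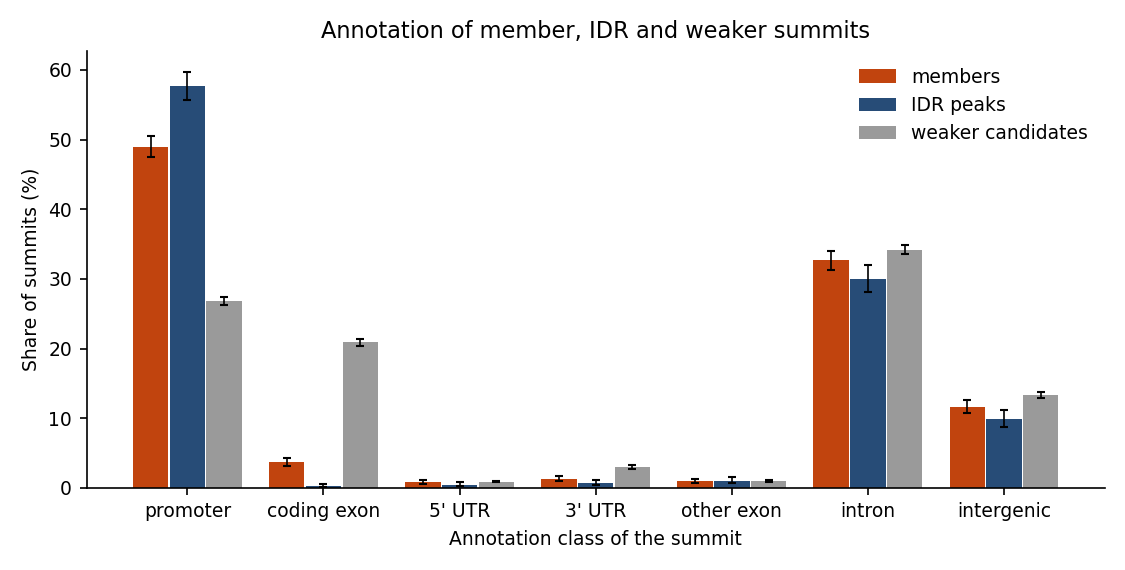
Share of summits in each annotation class, in percent, for 4327 members, 2177 IDR peaks and 22808 weaker candidates; whiskers are 95% Wilson intervals, which cover counting error only. Member promoters (49.0%) lie between IDR peaks (57.7%) and weaker candidates (26.7%), and member coding exons (3.67%) between 0.230% and 20.9%.

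At promoters, member summits sat closer to the TSS than IDR summits did and less often upstream of it. Of the 2119 promoter members, 1283 (60.5%) lay upstream, with a median position of -28 bp from the nearest TSS (quartiles -123.5 and 58), and 51.0% lay within 100 bp of it. IDR promoter summits were upstream in 79.4% of cases with a median of -82 bp and 46.2% within 100 bp. Those of weaker candidates were upstream in 45.8% with a median of 20 bp and 34.2% within 100 bp. These positions were not tested. At 144 of the promoter members (6.80%) the nearest TSS belonged to a gene that does not code for protein.

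Within the members, the annotation shifted with rank. Split into 4 bands of equal size by rank, promoters made up 53.4%, 51.2%, 48.1% and 43.2% from the strongest band to the weakest, and coding exons 0.739%, 2.87%, 4.26% and 6.84%. Members with both replicates made up 85.9%, 78.5%, 72.3% and 63.3%, and mean GC content was 40.2%, 41.1%, 42.1% and 42.7%. The median distance to a TSS was 367, 430.5, 585 and 737 bp. GC content and replicate support thus moved with rank beside the annotation, and their part in it was not tested.

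**Figure D3:**
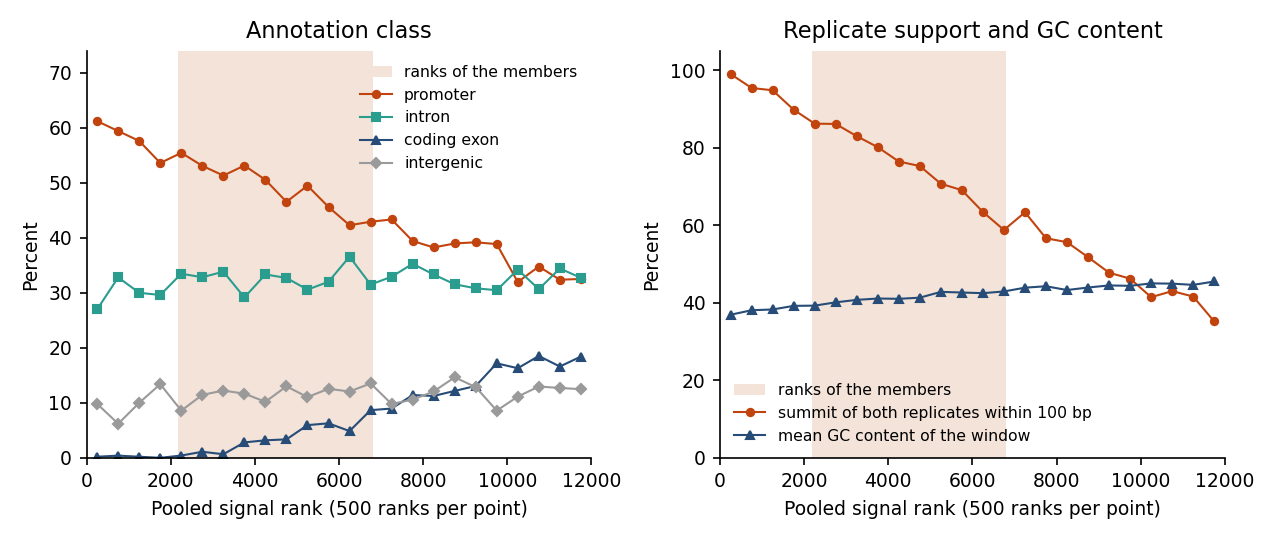
Percentages along the pooled signal rank, 500 ranks per point and leaving out regions that overlap an IDR peak, with the ranks of the members shaded. Left, annotation classes; right, the share with a summit of both replicates within 100 bp and mean GC content; promoters and replicate support decline and coding exons increase across the shaded ranks without a step at either edge.

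Annotation did not differ detectably between the 3245 members with both replicates and the 1082 with fewer. Promoters made up 48.2% of those with both and 51.3% of those with fewer (odds ratio 0.883 by Fisher's exact test, adjusted p = 0.28), and no other class passed. Compared within the 4 rank bands, a setting added after the values were seen, the promoter share of members with both replicates was lower and passed (Mantel-Haenszel odds ratio 0.82).

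The 15 strongest members had signals from 57.49 to 57.75, and 9 lay at promoters. After the region at lncRNA:flam (nearest protein-coding gene DIP1) came the promoter of CG17544, an intron of DPCoAC, a mitochondrial carrier, and the promoters of Zif, a zinc finger factor, and REPTOR, a transcription factor controlled by the TORC1 kinase. Others were the promoters of DAAM, a formin, slmb, the F-box protein of a ubiquitin ligase (3R:21127268-21127731, signal 57.58), EloB, an elongin (3R:20579676-20580139, 57.55), Rpn11, a proteasome deubiquitinase (2L:5059290-5059753, 57.53), and RhoGAP16F. Summits in introns lay in NetB, a netrin guidance cue (nearest TSS that of hog), jing, a zinc finger factor, Ptp61F, a phosphatase (nearest TSS that of ru, a rhomboid protease), and tna, a SUMO ligase-like factor. The region nearest fng, a glycosyltransferase that acts on Notch, was intergenic. In 14 of the 15 both replicates had a summit; that at slmb ranked 2077 in replicate 3 and had none within 100 bp in replicate 2.

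The members best placed in both libraries, ranked by their worse replicate, were those of rdgBbeta, ms(3)K81, Oda, Mob2, a kinase partner, aus, DPCoAC, htk, a chromatin factor, EloB, CG33695 and CG5151. The worse rank ran from 2099 at rdgBbeta to 2412 at CG5151. Of these 10, 6 were promoter and 4 intron members, and the promoters of ms(3)K81, htk and EloB held a DRE.

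DNA motifs were counted as consensus matches on either strand within 100 bp of the summit, for 12 consensus sequences. The GCM octamer was present at 62 members (1.43%, interval 1.12 to 1.83), 17 IDR peaks (0.781%) and 369 weaker candidates (1.62%), and at 1.54% of all pooled candidates. Neither comparison passed: the odds ratio was 1.85 against IDR peaks (Fisher's exact test, two-sided, adjusted over 12 motifs, p = 0.14) and 0.884 against weaker candidates (Fisher's exact test, adjusted p = 0.51). Without a replicate, the strongest regions of the other replicate's own list stood in for the IDR peaks. The ratio against them depended on the library. It was 1.50 without replicate 3, which did not pass, and 2.64 without replicate 2, which did. Matched on GC content, the odds ratio against the IDR peaks themselves was 1.37. Both replicates had a summit at 74.2% of members with the octamer and 75.0% of those without. Density within 50 bp of the summit was 64.7 matches per Mb at members (28 matches), 45.9 at IDR peaks (10) and 90.8 at weaker candidates (207). At 50 to 100 bp it was 78.6 (34 matches), 41.3 (9) and 75.4 (172) in the same order. At members it was thus no higher within 50 bp than at 50 to 100 bp. At 200 to 400 bp it was 61.2, 63.2 and 63.2 in the same order.

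The strongest member with the octamer lay in an intron of CtsL1, a cathepsin (signal 57.4). It was followed by those nearest CG14662, in an intron of plh, CHES-1-like, a forkhead factor, mtd, CG16753, CG5149, CG32299, gcm2, MrgBP, a chromatin protein, and ftz-f1, a nuclear receptor. Their signals ran from 57.4 at CtsL1 to 45.1 at ftz-f1. In the lines above, the octamer lay 10 bp from the summit at CG14662, 3 bp at CG5149, 26 bp at gcm2 and 81 bp at CHES-1-like. By replicate, CG14662 had signal 27.0 in replicate 2 and 27.6 in replicate 3, while CG16753 had 31.9 in replicate 2 and no summit in replicate 3. Of the 62, 26 were at promoters.

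Sites of the promoter factors DREF and M1BP were more frequent in members than in weaker candidates. The DRE octamer was present at 148 members (3.42%), against 4.04% of IDR peaks and 1.09% of weaker candidates, and at 1.67% of all pooled candidates. The odds ratio was 3.21 against weaker candidates (Fisher's exact test, adjusted p = 3.8e-24) and 0.841 against IDR peaks (adjusted p = 0.35, same exact test). The M1BP site was present at 114 members (2.63%), 1.93% of IDR peaks, 0.710% of weaker candidates and 1.09% of all (odds ratio 3.78 against weaker candidates by Fisher's exact test, adjusted p = 2.8e-23). Nearly all lay at promoters, 141 of the 148 DRE and 106 of the 114 M1BP members, and over 500 bp from a TSS the DRE odds ratio was 0.98. The strongest promoter members with a DRE were those of slmb, EloB, CG16896, Vps15, a kinase of vesicle trafficking, and Ant2, an ADP/ATP carrier, and slmb held an M1BP site as well (listed after their values were seen).

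The GAF site GAGAGAG was present at 5.41% of members, 5.51% of IDR peaks, 3.62% of weaker candidates and 4.12% of all (odds ratio 1.52 against weaker candidates by Fisher's exact test, adjusted p = 3.0e-07). Also higher than in weaker candidates were GATA sites (GATAA or GATAG after A or T; 33.4% against 28.6%, 29.9% of all), the CTCF site AGGTGGCGC (0.624% against 0.320%, 0.407% of all) and the homeodomain core TAATTA (11.5% against 10.1%, 10.6% of all). Lower was the Tramtrack site GGTCCTGC (9 members, 0.208%, against 0.504%, 0.417% of all). Their odds ratios were 1.25, 1.96, 1.15 and 0.411, with adjusted p = 1.0e-09, 0.013, 0.014 and 0.013 by Fisher's exact test. Mean GC content of the windows differed between the sets, being 41.5% at members, 38.1% at IDR peaks and 45.5% at weaker candidates. Matched on GC content, the GATA odds ratio was 1.03 and the Tramtrack one 0.668, and neither passed, while the homeodomain one was 0.84, in the other direction. The CTCF call was lost without replicate 2 (1.48), the Tramtrack call without replicate 2 (0.567) and the homeodomain call without replicate 3 (1.09). Within 500 bp of a TSS the odds ratios were 1.18 for GAF, 1.10 for GATA and 1.37 for CTCF, and none of the 3 passed.

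Against IDR peaks the homeodomain core was the only consensus that passed (11.5% against 14.2%, odds ratio 0.78 by Fisher's exact test, adjusted p = 0.020). Matched on GC content its odds ratio was 0.98 and did not pass. The Su(H) core TGGGAA (10.8% of members, 11.2% of all), the E-box CAGCTG (11.5%, 11.6% of all), the Zelda site CAGGTAG (1.29%, 1.37% of all) and the single octamer ATGCGGGT, which is 1 of the 4 GCM octamers (0.347%, 0.477% of all), passed against neither set. Without replicate 2 the Zelda site passed against the strongest regions of replicate 3's own list, which stood in for the IDR peaks (odds ratio 2.14). TATCGATA, TAATTA and CAGCTG read the same on both strands and were counted once per position.

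**Figure D4:**
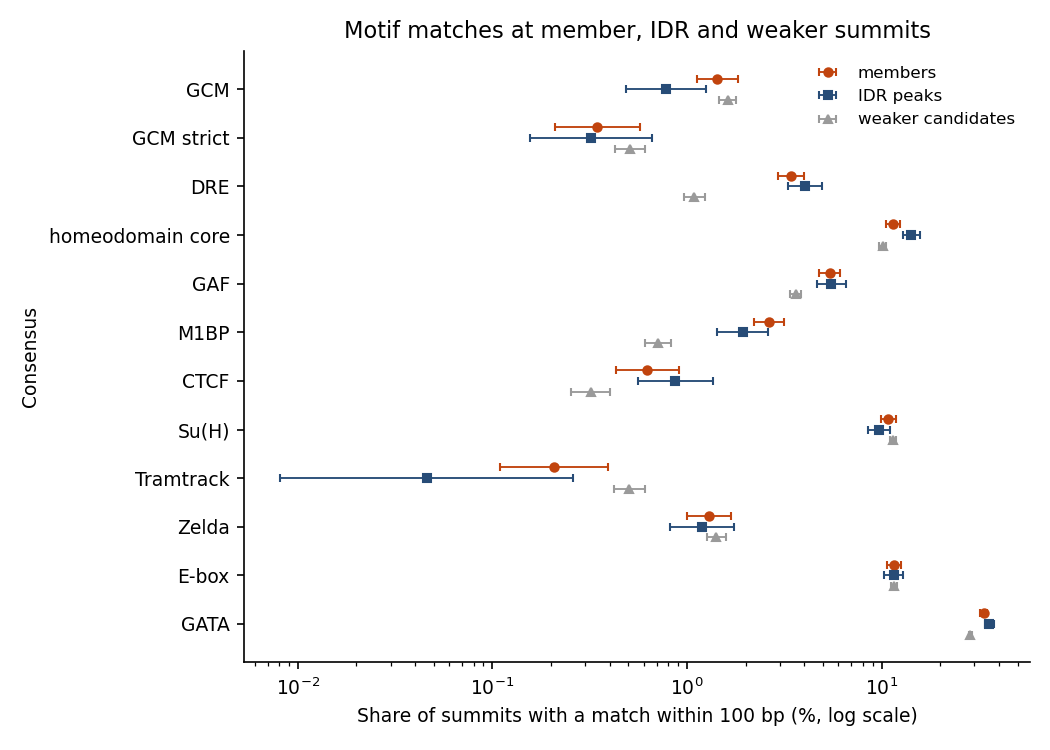
Share of summits with a match to each consensus within 100 bp, in percent on a log scale, for members, IDR peaks and weaker candidates; bars are 95% Wilson intervals, which cover counting error only. For DRE (3.42%) and M1BP (2.63%) the interval of the members overlaps that of the IDR peaks and lies above that of the weaker candidates, and for the GCM octamer the members (1.43%) lie between IDR peaks (0.781%) and weaker candidates (1.62%) and their interval overlaps both.

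Genes were assigned to members through the TSS: a gene counted where a member summit lay within 1 kb of 1 of its TSSs. Of 13945 protein-coding genes 2893 (20.7%) had one, through 2482 members (57.4%), and 1766 (12.7%) had an IDR summit. Of the genes with a member, 340 had an IDR summit too and 2553 (88.2%) had none. Candidates that share a base with an IDR peak were left out by the rule, and the overlap was not tested. Gene lists are given by their counts against this 20.7%, with no test, since they were drawn up with earlier results of these data known. Counts without a replicate are those of the other replicate's own list, with ranks taken there in the same way.

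Of the 6 genes of the Gcm pathway list (gcm, gcm2, repo, pnt, loco and ttk), 4 had a member within 1 kb of a TSS (66.7%, interval 30.0 to 90.3) and an IDR summit there was found for none; pnt had one inside the gene. At each of the 4 the strongest member that close to a TSS was found in both replicates, with higher signal in replicate 3. The member at pnt, an Ets factor of glial and EGF receptor signalling (3R:23314488-23314951), had signal 15.9 in replicate 2 and 22.8 in replicate 3 and a pooled signal of 56.9. At loco, a regulator of G protein signalling (3R:22639058-22639521), the values were 22.2 in replicate 2, 26.6 in replicate 3 and 47.7 pooled. At gcm2 (2L:9608104-9608567) they were 21.0, 27.1 and 47.3 in the same order, and at ttk, a repressor of neuronal genes (3R:31713471-31713934), 15.4, 26.8 and 43.8. All 4 summits were in the promoter class: relative to the gene's nearest TSS they lay at -405 bp at pnt, -226 bp at gcm2, -164 bp at ttk and 97 bp at loco. Of the 4 only the gcm2 member held a GCM octamer. Members of these genes farther from a TSS went both ways. An intron member of ttk (3R:31717999-31718462, pooled signal 52.0) had signal 35.4 in replicate 2 and 14.6 in replicate 3. An intron member of pnt (3R:23293359-23293822, pooled signal 44.5) had 19.5 in replicate 2 and 24.3 in replicate 3. The list count was 4 in the middle ranks of replicate 2's own list and 6 in those of replicate 3.

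Around gcm2 itself (2L:9608562-9612706, plus strand) there were 3 members within the gene or 1 kb of it. The others were a coding-exon member (2L:9610904-9611367, signal 33.4; ranks 7648 and 8818 in replicates 2 and 3) and an intron member with rank 4591 in replicate 3 and none in replicate 2 (2L:9609772-9610235, signal 32.5). An IDR peak lay 4866 bp downstream of the gcm2 TSS, at the promoter of the neighbouring gene Trx2, a thioredoxin (2L:9613196-9613659, signal 88.5). The paralog gcm had 1 member, 2571 bp from its TSS beyond the end of the gene and in the promoter of CG31709 (2L:9578942-9579405, signal 31.0). It ranked 24175 in replicate 2 and had no summit within 100 bp in replicate 3. A weaker candidate that overlaps it (2L:9579141-9579604, pooled signal 19.6) had signal 23.5 and rank 3279 in replicate 3. That candidate had no summit within 100 bp in replicate 2. The candidate at the gcm promoter itself was weaker than the member (2L:9581531-9581994, signal 23.0, with 9.91 in replicate 2 and 20.1 in replicate 3). At repo, the homeodomain factor of glia, there was no member: the promoter candidate had signal 29.7, just under the range (3R:18235857-18236320; 9.62 in replicate 2 and 19.1 in replicate 3). Counted over the gene and 1 kb on each side, pnt had 12 members and 1 IDR peak, loco 4 members and ttk 3.

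Glial genes had a member within 1 kb of a TSS in 8 of 29 cases (27.6%, interval 14.7 to 45.7) and an IDR summit in 4. By role they were membrane and junction proteins, Nrg, an L1-type adhesion molecule (X:8517234-8517697, signal 46.1), Nrx-IV and Gli of septate junctions (36.3 and 33.8) and the sodium pump subunit nrv2 (35.8), transporters and receptors, Ndae1 (2L:7239282-7239745, signal 48.8), Tre1 (45.3) and the FGF receptor htl (34.3), and ana, a protein secreted by glia (31.3). Of these, htl was near an IDR summit too. Nrg had signal 22.4 in replicate 2 and 23.7 in replicate 3, while htl had 9.17 in replicate 2 and 25.7 in replicate 3, and nrv2 had 32.2 in replicate 2 and no summit in replicate 3. In addition mdy, a lipid synthesis gene, held a member in an intron. The middle ranks of the replicates' own lists reached 7 glial genes in replicate 2 and 5 in replicate 3.

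Hemocyte genes had a member within 1 kb of a TSS in 5 of 25 cases (20.0%, interval 8.86 to 39.1) and an IDR summit that close in none (ush had 8 inside the gene), and the count was 5 in replicate 2's own list and 3 in replicate 3's. The 5 were ush, a GATA cofactor (2L:489935-490398, signal 51.6), Pvr, the receptor of PDGF- and VEGF-like factors (2L:8229503-8229966, 43.2), peb, a zinc finger factor (39.8), the GTPase gene Rac2 (35.3) and crq, a scavenger receptor for dying cells (2L:451730-452193, 35.0). The member at crq held a GCM octamer, had signal 14.7 in replicate 2 and had no summit in replicate 3. The strongest member of each of the 5 had its higher signal in replicate 2: Pvr had signal 26.3 in replicate 2 and 13.4 in replicate 3, and ush had 34.8 in replicate 2 and no summit in replicate 3. A further 3 genes held a member only inside the gene: PPO3, a prophenoloxidase, at the promoter of l(2)k09913, zfh1, and Pvf3, a ligand of Pvr.

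**Figure D5:**
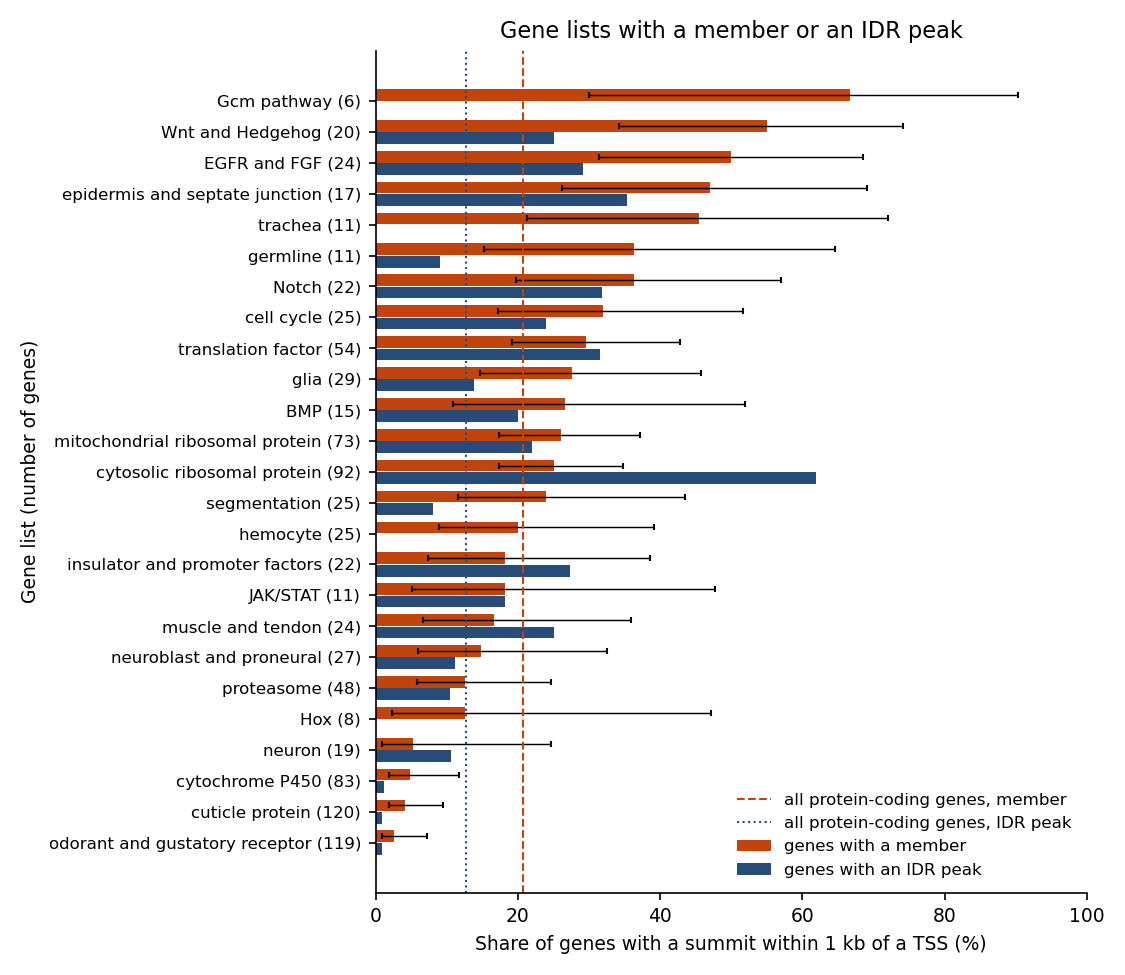
Share of the genes of each list, in percent, for which a summit, of a member or of an IDR peak, lies at most 1 kb from a TSS; numbers of genes stand in brackets, whiskers on the member bars are 95% Wilson intervals, and the dashed and dotted lines are the shares among all protein-coding genes (20.7% and 12.7%). The Gcm pathway, Wnt and Hedgehog, and EGFR and FGF lists reach furthest right with members, and the cytosolic ribosomal protein list with IDR peaks (62.0%).

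Of the 5 signalling lists, Wnt and Hedgehog and EGFR and FGF had the largest shares with a member. The difference from the 20.7% of all genes was not tested, and the intervals cover counting error only. Wnt and Hedgehog genes numbered 11 of 20 (55.0%, interval 34.2 to 74.2), 8 in replicate 2's own list and 11 in replicate 3's, and 5 had an IDR summit. The strongest were fz2, a Wnt receptor (3L:19170436-19170899, signal 57.1), Wnt4, a ligand (43.7), and pan, the nuclear effector of Wnt signalling (42.9). EGFR and FGF genes numbered 12 of 24 (interval 31.4% to 68.6%), with 11 in each replicate's own list and 7 with an IDR summit, led by pnt, sty, an inhibitor of receptor signalling (3L:3418710-3419173, 55.7), and aos, a secreted inhibitor of the EGF receptor (53.8). Notch genes numbered 8 of 22 (36.4%, interval 19.7 to 57.0; IDR 7), led by fng (57.5), E(spl)mbeta-HLH, a target repressor (53.9), and mam, a coactivator (49.5). BMP genes numbered 4 of 15 (26.7%, interval 10.9 to 52.0; 7 in replicate 2's own list, 5 in replicate 3's), led by Dad, Mad and tkv. JAK/STAT genes numbered 2 of 11 (18.2%, interval 5.14 to 47.7), Socs16D and Su(var)2-10, but 4 and 5 in the replicates' own lists.

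Among tissue lists, epidermis and septate junction genes numbered 8 of 17 (47.1%; 5 with both replicates), led by the polarity genes crb (3R:24295826-24296289, signal 54.4) and sdt (52.7) and the sodium pump gene Atpalpha (52.9). Tracheal genes numbered 5 of 11 (45.5%; 3 with both replicates), and none had an IDR summit so close, though rib had one inside the gene. They were trh, the bHLH-PAS factor that starts tracheal fate (3L:377314-377777, signal 53.0), bnl, the FGF that guides branches (48.5), rib (41.3) and 2 more. Of these trh had signal 36.2 in replicate 2 and no summit in replicate 3, and the list count without replicate 3 was 2. Germline genes numbered 4 of 11, led by zpg, gcl and vas, and segmentation genes 6 of 25, led by btd, cad and oc. Neuroblast and proneural genes numbered 4 of 27, led by nub, brat and da, muscle and tendon genes 4 of 24 (2 without replicate 3 and 8 without replicate 2), led by lbl, kon and ap, Hox genes 1 of 8 (pb; 2 without replicate 2) and neuronal genes 1 of 19 (Syx1A; 2 and 4 in the replicates' own lists).

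Lists of broadly expressed genes ranged from 12.5% to 32.0% with a member. Cytosolic ribosomal protein genes numbered 23 of 92 with a member (interval 17.3% to 34.7%) and 57 with an IDR summit. As 4 had both, 76 of the 92 were reached by 1 set or the other. The strongest members were at RpS6 (X:7900918-7901381, signal 55.0), RpL7-like (54.0) and RpS14a (47.6), and the last 2 held a DRE. Mitochondrial ribosomal protein genes numbered 19 of 73 (26.0%), led by mRpS21 (55.4), mRpL51 (54.6) and mRpL48 (51.2). None of the 19 was among the 16 with an IDR summit, against 340 of all 2893 genes with a member. At 15 of the 19 the protein-coding TSS nearest the strongest member was that of a neighbouring gene, against 5 of the 23 cytosolic ones. Translation factors numbered 16 of 54 (29.6%; 8 without replicate 2), led by eEF2, eIF2beta and eIF3j, and proteasome genes 6 of 48 (12 without replicate 2), led by Rpn11, Rpn13 and Rpn1. Cell cycle genes numbered 8 of 25 (13 without replicate 3), led by aurA, CycG and fzy, and insulator and promoter factors 4 of 22 (8 without replicate 3), led by BEAF-32, ph-d and mod(mdg4). At aurA, fzy, gcl and vas too the nearest protein-coding TSS was that of a neighbouring gene.

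Gene families of late or restricted expression were seldom reached: 5 of 120 cuticle protein genes (4.17%), 3 of 119 odorant and gustatory receptor genes (2.52%) and 4 of 83 cytochrome P450 genes (4.82%), with 1 IDR summit in each list. Without replicate 3 the cuticle count was 3, and without replicate 2 the receptor count was 1. The cuticle members were led by Cpr67Fb, whose intergenic member held a GCM octamer (3L:10893143-10893606, signal 44.3), and 1 of the 5 was Cpr, a P450 reductase that shares only the symbol prefix. All 3 receptor genes, Gr5a, Gr63a and Gr32a, had a summit whose nearest protein-coding TSS was that of another gene (Tre1, Lamtor4 and Idua).

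A few genes held many members. The adhesion gene kirre held 14 members and 7 IDR summits in 394149 bp. The TGF-beta-responsive gene bun held 13 members and 0 IDR summits in 91072 bp, and ush 12 members and 8 IDR summits in 64341 bp. Then came ftz-f1, hth, pnt, px and shn with 11 members each. At the other end 1384 genes held 1 member. Per 10 kb of gene, members numbered 0.355 at kirre, 1.43 at bun, 1.87 at ush and 2.17 at ftz-f1. The relation of these counts to gene length was not tested.

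The members were spread over the chromosomes like the other sets. X held 15.5% of members, 17.7% of IDR peaks and 16.0% of weaker candidates, and chromosome 4 held 28 members (0.647%), 6 IDR peaks (0.276%) and 0.798% of weaker candidates. No chromosome passed in either comparison (Fisher's exact test, adjusted over 6 chromosomes; the smallest adjusted p was 0.12, for X against IDR peaks). However, X passed without replicate 3 against the strongest regions of replicate 2's own list (odds ratio 0.81). It also passed without replicate 2 against the weaker regions of replicate 3's own list (0.863). In the dm3 lists of the same libraries the same rule gave 4053 members, 75.9% of them found in both replicates.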

How the data were processed

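Both libraries are the labels' biological replicates of 1 group, so p-values over regions measure counting error only, and regions are not independent replicates. The authors deposited peak lists in 2 genome builds: per-replicate and pooled lists of 30000 candidates, and the IDR peaks. Their signal column holds the authors' enrichment per region, which ranks regions within a list, and another column holds the deposited −log10 q-value. The aligner, peak caller, IDR threshold and read depth were not given in the sources used here, so depth is unknown.

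From these lists the dm6 members were selected by pooled signal, and summits were annotated with the Ensembl release 115 genes (BDGP 6.54) and the RefSeq Release 6 genome. Shares were compared by two-sided Fisher's exact tests with Benjamini-Hochberg adjustment within 7 classes, 6 chromosomes or 12 motifs, at 0.05. Tests matched on GC content, class or rank band were Mantel-Haenszel tests. Wilson intervals are at 95% and cover counting error only. The genes named are those nearest the 15 strongest members, the 10 with the best worse-replicate rank and the 10 strongest with a GCM octamer, with gcm, gcm2, every Gcm pathway, glia and hemocyte gene with a member, up to 3 of each other list, and the regions at both rank bounds. Genes added to these are said to be chosen after their values were seen. Members and gene lists were chosen with earlier results of these data known. Alternatives changed promoter width, motif window, summit distance, TSS distance, part of the rank range and replicate, and the tests were checked on simulated data. Without a replicate, all sets were taken by rank from the other replicate's own list, and its strongest regions stood in for the IDR peaks. Tools were Python 3.11.15, numpy 2.4.6, pandas 2.3.3, scipy 1.17.1, statsmodels 0.14.6 and matplotlib 3.10.9.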

Additional observations from a re-analysis of the deposited data

How the results depend on the processing

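The promoter and coding-exon comparisons kept their direction and passed the threshold in every alternative run. When 1 replicate was left out, the odds ratio for the GCM octamer ranged from 1.50 to 2.64. That comparison was with the strongest regions of the other replicate's own list, not with the IDR peaks. The share of members found in both replicates was 49.99% with summits within 50 bp, 93.7% within 250 bp and 96.6% for any overlap. It was 82.2% in the stronger of 2 equal rank ranges, 67.8% in the weaker one and 29.6% when a region had to be among the 6800 strongest of each replicate. Promoters, compared between members with both replicates and with fewer, passed only within rank bands (0.819, added after the values were seen). Genes with a member numbered 5676 within 5 kb of a TSS. Against weaker candidates the DRE odds ratio was 0.981 over 500 bp from a TSS, the homeodomain core 0.840 matched on GC content and 0.971 within 500 bp of a TSS, and the E-box 1.22 matched on GC content, each in the other direction. The cause of these shifts was not tested. Keeping only q-values up to 0.05 left out no member. No paired analysis was possible because there is 1 group. Depth is unknown, so no limit from depth can be given.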
